A study of Mus musculus with 12 samples.

Results

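The comparison described here asks whether the rostral to caudal expression ratio of the embryonic mouse neocortex differed between an outbred and an inbred strain, which in a model is the interaction of strain and region. It rests on all 12 of 12 arrays, 6 of MF1 and 6 of C57. MF1 is an outbred stock, and C57 is inbred and given in the series' design text as C57Bl\6. The tissue came from embryos at E13.5, and the rostral end of the cortex was hybridised against the caudal end of the same pool. Per the labels each pool held 3 embryos, while the design text of the series allows fewer per pool and names single litters as their source. No treatment or transgene is given, and the sex of the embryos was not given in the sources used here. Each strain had 3 pools, and a pair of arrays (2 per pool) carried each pool in exchanged dyes. Both arrays of a pool carried the same RNA and were averaged, so the replicate was the pool, with n = 3 in each strain. Whether pools of 1 strain were drawn from different litters is not stated in the labels. A p-value here therefore reflects only how these pools varied, which may be partly technical.

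The areas of the neocortex are laid out along its rostral to caudal axis by graded signals and transcription factors. FGF ligands released at the rostral pole promote rostral identity, while Wnt and BMP ligands of the cortical hem act from the caudal and medial side. Factors such as Pax6 are graded with a rostral high end, and Nr2f1, Emx2 and Lhx2 with a caudal high end. At E13.5 progenitors along the ventricle are dividing and the first neurons are settling in the cortical wall. The study used both strains to separate gradients that hold in either strain from gradients that vary with the strain.

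The arrays give rostral over caudal RNA as a log2 ratio, so an identity check by the level of marker genes could not be made. The direction is likely rather than known, because which channel is the numerator had to be inferred. Its basis is that the caudal reference genes had a median ratio of -0.09 in MF1 and -0.31 in C57, below the rostral reference genes at 0.27 and 0.12. If the direction were turned, every strain difference below would change its sign and keep its size. The ratios also hold no information on whether a gene was more abundant in one strain than in the other. In such tissue, fewer cells of a type and less RNA per cell cannot be told apart.

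The arrays of the strains differed as sets. Each array gave between 17945 and 20959 values. Missing values made up 8.05% ± 0.786 of the probes in MF1 (SD, n = 3 pools) and 14.8% ± 1.88 in C57. The SD of the log2 ratios on an array, estimated from the median absolute deviation, was 0.488 ± 0.0425 in MF1 and 0.745 ± 0.0377 in C57. After both dye orientations of a pool were averaged, it was 0.352 ± 0.0366 in MF1 and 0.431 ± 0.0276 in C57. No pool of one strain overlapped the pools of the other in any of these measures. The two-sided exact permutation p was 0.1 for each, the smallest that 3 pools against 3 can give. Each array held 1 strain, so strain and set of arrays cannot be told apart in anything that follows.

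One pool stood apart. The ratios of MF1 pools 1 and 2 correlated across features with a Spearman coefficient of 0.28, but MF1 pool 3 correlated with them at -0.22 and -0.21. A feature is a gene, or a probe without a gene name. Whether its dyes were recorded correctly was not tested. Its labels were kept, and the counts that lead this account are also given without it.

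Pools of the same strain were not alike in their ratios as a rule. Within C57 the Spearman coefficients were 0.01, 0.12 and 0.22. The 9 pairs of pools from different strains ran from -0.07 to 0.22, with a mean of 0.06, beside means of -0.05 within MF1 and 0.12 within C57. A different picture came from the dye part of the signal, which is the difference between the orientations of a pool divided by the number of orientations. This part had coefficients from 0.45 to 0.53 within C57, from 0.12 to 0.35 within MF1, and from -0.04 to 0.04 between strains. Pools of C57 were thus more alike in their dye signal than in their rostral to caudal ratio. These coefficients describe features measured on the same arrays and carry no test.

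**Figure D1:**
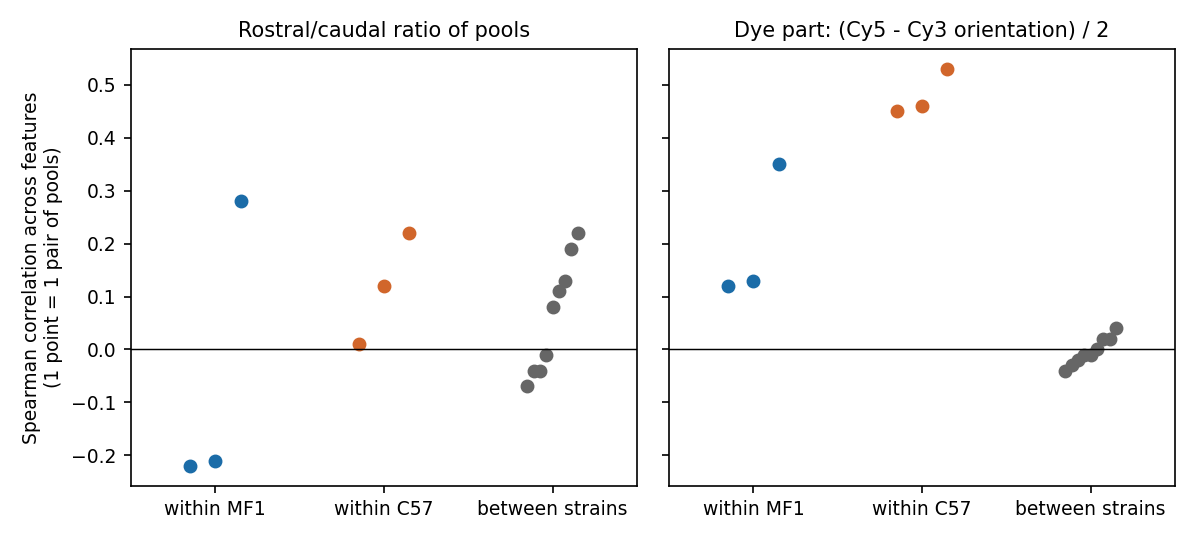
Spearman correlation across features for every pair of pools, with 1 point per pair; the left panel uses the rostral to caudal ratio of the pools and the right panel the part of the signal that changes sign with the dyes. In the left panel the pairs between strains lie from -0.07 to 0.22, the C57 pairs from 0.01 to 0.22 and the MF1 pairs from -0.22 to 0.28, with those that hold pool 3 at -0.22 and -0.21; in the right panel the C57 pairs lie at 0.45 to 0.53 and the pairs between strains near 0.

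No gene passed the test of the strain difference. In the limma fit of the 6 pool means, 0 of 14418 features (0.0%) had an adjusted p under 0.05, and the smallest adjusted p was 0.532. An unadjusted p under 0.05 was reached by 879 features (6.1%), of which 520 (3.61%) had the higher rostral to caudal ratio in MF1 and 359 (2.49%) the lower. Without the centring of arrays on their medians the count was 721, split into 354 and 367, so the calls were split nearly evenly there, beside 59.2% with MF1 higher in the centred arrays. Without MF1 pool 3 the fit gave 1105 features at an unadjusted p under 0.05 and 0 after adjustment. The other fits by limma, among them a random pool effect over 12 arrays and a robust fit, also gave 0 after adjustment.

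How precisely a strain difference could be measured is seen in its interval. The 95% interval reached a median of 0.77 to either side of the estimate on the log2 scale, and for 6568 features (45.6%) the whole interval lay between -1 and 1. For those features a difference between the strains of more than 2-fold in the rostral to caudal ratio lies outside the interval. The median size of the difference over all features was 0.25. Missing values moved with the calls: an unadjusted p under 0.05 was reached by 3.86% of the 10622 features measured on all 12 arrays and by 12.4% of the 3796 others, whose median difference was 0.48 in size. Using only probes with a value on all 12 arrays, 484 of 10517 features (4.6%) reached it.

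The overlap of pools was counted as a description and not tested. For 3 pools against 3, no overlap corresponds to a two-sided exact permutation p of 0.1, the smallest possible. A share near 0.1 of the features is thus the baseline for pools without a strain difference. Among 10596 features with 3 pools in each strain, the pools of the strains did not overlap for 1002 (9.46%). Of these, 604 (5.7%) were higher in MF1 and 398 (3.76%) lower. The pools of the strains lay on opposite sides of 0 for 214 features (2.02%), while 631 (5.96%) had 6 of 6 pools on the same side. All 6 arrays of one strain lay beyond all 6 of the other for 29 features (0.274%), 23 (0.217%) with MF1 above and 6 (0.0566%) with MF1 below.

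Each dye orientation taken alone gave more calls than both together, and largely of opposite sign. With rostral RNA in Cy3, 2343 of 17202 features (13.6%) had an unadjusted limma p under 0.05 for the strain difference. With rostral RNA in Cy5 there were 2090 of 17174 (12.2%). Neither orientation had a feature past adjustment. Of the 14418 features of the pool fit, 332 (2.3%) reached the unadjusted threshold in both orientations with opposite signs and 19 (0.132%) with the same sign. Across features the strain differences of the orientations correlated at -0.36 (Spearman). Within C57 the mean ratios of the orientations correlated at -0.37 and within MF1 at -0.04. The difference in each orientation is therefore given beside many of the genes below.

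**Figure D2:**
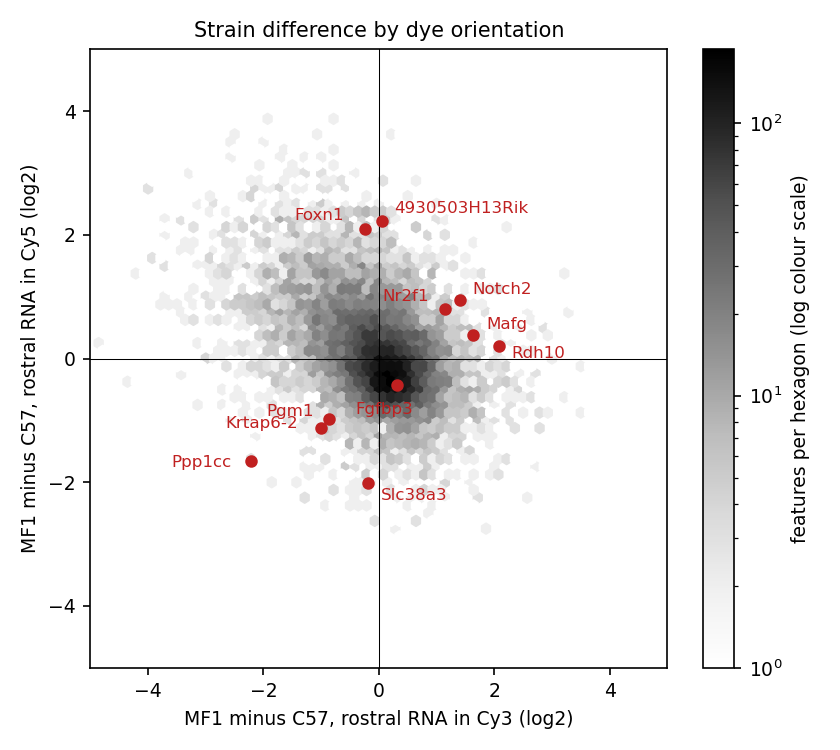
Strain difference (MF1 minus C57, log2 rostral over caudal) on arrays with rostral RNA in Cy3, on the horizontal axis, and in Cy5, on the vertical axis, for 14418 features; shading gives the number of features on a log colour scale and red points are named genes. The cloud runs from upper left to lower right (Spearman -0.36), while Nr2f1 and Notch2 lie in the upper right quadrant and Ppp1cc, Krtap6-2 and Pgm1 in the lower left.

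The 19 features with the same sign in both orientations held 15 named genes. They were Nr2f1, Notch2, Odf2, 4931403G20Rik, Gtf3c1, Cog8, Tmbim1 and 1700012C14Rik with the higher ratio in MF1, and Ppp1cc, Obp1a, Ccdc112, Krtap6-2, Hsd3b4, Pgm1 and Pcsk5 with the lower. Of these, Nr2f1 is a reference gene of this axis, and Notch2 and Pgm1 belong to the Notch and glycolysis lists.

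Nr2f1 encodes an orphan nuclear receptor of the COUP-TF family that promotes caudal area identity. Its log2 ratios were -0.49, -0.57 and -0.89 in MF1 pools 1 to 3 and -1.89, -1.48 and -1.51 in C57 pools 1 to 3. All 6 pools were on the caudal side, and the C57 pools lay below every MF1 pool. The means were -0.65 ± 0.21 and -1.63 ± 0.23 (SD, n = 3 pools), which is 1.57-fold and 3.08-fold more caudal than rostral RNA. The gradient was thus 1.97-fold shallower in MF1, a log2 difference of 0.97 with a 95% interval from 0.41 to 1.54 (limma, unadjusted p = 0.00508, adjusted p = 0.693). It was 1.15 with rostral RNA in Cy3 and 0.80 with rostral RNA in Cy5. Averaged over its probes, the MF1 arrays ran from -1.0 to -0.36 and the C57 arrays from -1.98 to -1.37. Single arrays of the strains thus did not overlap in this mean either.

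The size of the Nr2f1 difference varied with the probe and the scale. One of its probes averaged -1.07 in MF1 and -1.68 in C57, and the other -0.23 and -1.57, so the differences were 0.61 and 1.34. At the former, MF1 pool 3 and C57 pool 3 were each at -1.49, so the pools of the strains were not apart there. At the latter, the MF1 pools ran from -0.32 to -0.08 and the C57 pools from -1.75 to -1.43. Scaling all arrays to the same spread brought the difference to 0.54 (limma, unadjusted p = 0.0735). The spread of an array includes the dye part of the signal, whose SD was 0.259 in MF1 and 0.454 in C57. Scaling thus changes the rostral to caudal ratios by the dye part as well. Without MF1 pool 3 the Nr2f1 difference was 1.10. Lhx2, a homeobox factor of cortical progenitors with a caudal high end, had -0.31, -0.48 and -0.45 in MF1 and -0.70, -0.49 and -0.56 in C57. Every C57 pool lay below the MF1 pools, the nearest by little. The Lhx2 difference of 0.17 had an interval from -0.32 to 0.65 and was 0.33 and 0.00 by orientation.

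Notch signalling keeps cortical progenitors from differentiating: a ligand on a neighbouring cell activates a receptor, and the receptor turns on Hes repressors. The receptor Notch2 had ratios of -0.26, -0.17 and -0.34 in MF1 pools 1 to 3 and of -0.89, -1.74 and -1.68 in the C57 pools. It was close to even in MF1 and more abundant caudally in C57, with no overlap between pools or between arrays. Its difference was 1.18 with an interval from 0.49 to 1.87 (limma, adjusted p = 0.694), 1.41 and 0.95 in the orientations with rostral RNA in Cy3 and Cy5, and 0.87 with arrays scaled. Hes5, a repressor induced by Notch receptors, had 0.01, 0.06 and 0.19 in MF1 and 0.52, 1.27 and 0.89 in C57. The C57 pools were all rostral of the MF1 pools, opposite in direction to Notch2, with a difference of -0.80 (limma, adjusted p = 0.752) and -0.93 and -0.67 by orientation. It was -0.61 without C57 pool 2 (limma, unadjusted p = 0.0508), and the unadjusted p was 0.0529 without MF1 pool 1 and 0.051 without MF1 pool 2. On single arrays the lowest C57 value of Hes5, 0.18, lay within the MF1 range of -0.15 to 0.20. Lfng, a glycosyltransferase that modifies Notch receptors, had a difference of 1.06 that rested on the orientation with rostral RNA in Cy5 (2.10, beside 0.03 in Cy3).

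Of 18 measured members of the Notch list, 2 had an unadjusted p under 0.05 with MF1 higher and 1 with MF1 lower (16.7%, beside 6.1% of all features). None passed adjustment, and with a list this short the share is not a result about the list. The median difference of the list was 0.14, beside 0.01 over all features, and it was 0.46 with rostral RNA in Cy3 and -0.28 in Cy5.

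Ppp1cc, a catalytic subunit of protein phosphatase 1, had the smallest p among named genes with a lower ratio in MF1 and 3 pools in each strain. Its ratios were -1.24, -1.28 and -1.72 in MF1 and 0.03, 0.83 and 0.69 in C57. The strains lay on opposite sides of 0, with more RNA caudally in MF1 and rostrally in C57. The difference was -1.93 with an interval from -2.64 to -1.23 (limma, adjusted p = 0.532), and -2.22 and -1.65 in the orientations. Its MF1 arrays spread widely, from -2.32 to -0.17, but all lay below the lowest C57 array at -0.16.

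Krtap6-2, a keratin-associated protein of hair, had -0.31, -0.23 and 0.04 in MF1 and 1.27, 0.63 and 0.77 in C57. Its difference of -1.06 was -1.0 and -1.12 by orientation (limma, adjusted p = 0.693). Mafg, a small Maf factor that pairs with other leucine zipper proteins, had 0.20, 0.02 and 0.43 in MF1 and -0.78, -0.97 and -0.63 in C57. Its difference of 1.01 was 1.64 with rostral RNA in Cy3 and 0.38 in Cy5. Both genes had no overlap between single arrays, though the nearest Mafg arrays of the strains were each at -0.01.

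In all, 29 of 10596 features (0.274%) had no overlap between the arrays of the strains. Of these, 26 were named genes, 20 with MF1 higher and 6 with MF1 lower. Both arrays of a pool held the same RNA, so this count carries no test, and how many would arise without a strain difference was not tested. The differences of the 26 ran from 0.30 to 1.93 in size and their unadjusted limma p from 0.000382 to 0.17. In 20 of the 26 the strain means had opposite signs. Most of the ratios behind them were small. Gna13, the alpha subunit of a G protein, had 0.40, 0.46 and 0.24 in MF1 and -0.44, -0.51 and -0.31 in C57. Abi1, an adaptor of actin regulation, had -0.38, -0.32 and -0.05 in MF1 and 0.26, 0.32 and 0.32 in C57. These examples were chosen after their values were seen.

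**Figure D3:**
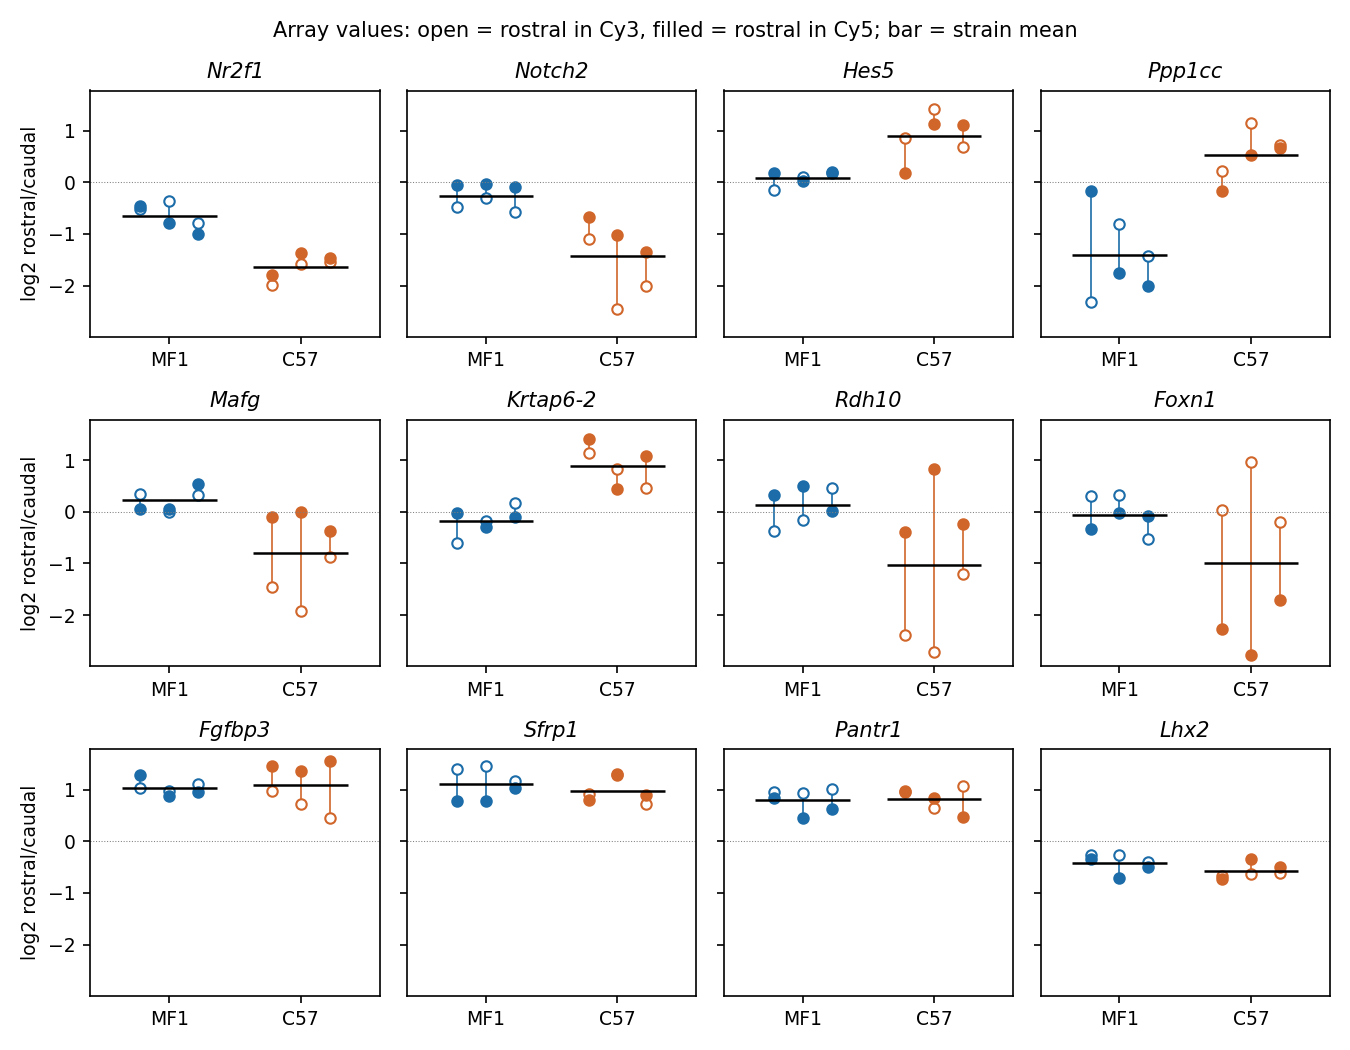
Log2 rostral over caudal ratio of 12 genes on each array, by strain, with open circles for rostral RNA in Cy3, filled circles for Cy5, a line joining both arrays of a pool and a bar at the strain mean. The strains are apart for Nr2f1, Notch2 and Ppp1cc, and their pools overlap for Fgfbp3, Sfrp1 and Pantr1. For Lhx2 the C57 pools lie below the MF1 pools by little, and single arrays overlap. The C57 pools of Rdh10 and Foxn1 have their orientations on far ends (for Foxn1 pool 2 at 0.97 and -2.77).

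Of the 24 named genes chosen by the smallest p, 12 in each direction by the rule, none had overlapping pools, which the choice by p nearly fixes. Their differences had the same sign in both orientations for 22 of 24, beside 71.9% of the 879 features at an unadjusted p under 0.05 and 35.5% of all features. With scaled arrays, 23 of 24 had an unadjusted limma p under 0.05, beside 73.7% of the 879. Both counts also follow in large part from the choice by p. In 13 of the 24 only C57 had a ratio with an unadjusted p under 0.05 against 0, beside 1304 of all features. In 5 it was only MF1, beside 532, and in 6 each strain, beside 96. Among the 24, the 12 with the higher ratio in MF1 had differences from 0.82 to 1.91. The 12 with the lower ratio had differences from -2.46 to -0.86. Adjusted p-values ran from 0.532 to 0.694.

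Several of these differences came from a single orientation. Rdh10, the retinol dehydrogenase that starts retinoic acid synthesis, had -0.02, 0.17 and 0.24 in MF1 and -1.39, -0.94 and -0.72 in C57. Its difference of 1.15 was 2.08 with rostral RNA in Cy3 but 0.21 in Cy5, and C57 pool 2 read -2.72 on one array and 0.83 on the other. Foxn1, a transcription factor of thymus and hair epithelium, had a difference of 0.93 that was -0.24 in Cy3 and 2.10 in Cy5. The uncharacterised transcripts 4930503H13Rik and 1700006H21Rik had 1.13 and 1.26, with 0.05 and 0.13 in Cy3 against 2.22 and 2.39 in Cy5. Slc38a3, a glutamine transporter, had -1.10, with -0.19 in Cy3 and -2.01 in Cy5. The difference of 2610306M01Rik was -1.69, with -3.53 in Cy3 and 0.14 in Cy5.

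Ephx3, an epoxide hydrolase, had the smallest p among named genes with a higher ratio in MF1 and 3 pools in each strain, with -0.03, 0.20 and -0.06 in MF1 and -1.40, -2.10 and -2.11 in C57. The MF1 arrays were all near 0, whereas C57 pool 3 averaged arrays at -4.40 and 0.18. Its difference was 1.91 with an interval from 1.26 to 2.56 (limma, adjusted p = 0.532), and 2.39 and 1.43 by orientation. Capg, an actin filament capping protein, had a difference of 1.03 (0.53 and 1.52 by orientation), and Dnaaf2, an assembly factor of ciliary dynein, of 0.82 (1.16 and 0.47). The transcript 2210409E12Rik had a difference of 1.5, at 1.68 and 1.33 by orientation. Gnal, a G protein subunit, was listed with 1.18, but one of its probes had values in both orientations only in MF1. Its other probe, on all 12 arrays, gave 0.25, and with no filter on missing values the gene gave 0.31.

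Among genes lower in MF1, Clu, a secreted chaperone, had -1.05, -0.70 and -0.36 in MF1 and 0.34, 0.41 and 0.90 in C57. Its difference of -1.26 was -1.27 and -1.24 by orientation. It was -0.73 for the probe measured on all 12 arrays and -1.90 for the other probe. Cux1, a homeobox factor of cortical neurons, had -0.45, -0.08 and -0.28 in MF1 and 0.69, 0.63 and 0.44 in C57. Its difference of -0.86 was -0.84 and -0.88 by orientation and had the same sign at both probes, -1.14 and -0.58. At the latter probe the pools of the strains overlapped, with MF1 pool 2 at 0.08 and C57 pool 1 at 0.01. Each orientation alone missed an unadjusted p of 0.05 for Cux1, and so did the fit of 12 arrays with a random pool effect (limma, unadjusted p = 0.0629).

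The other genes on the lower side had pools apart but wide arrays. Scin, an actin severing protein, had -1.92, with C57 pool 3 at 0.21 and 4.11 on its arrays. The transcript 4933424G05Rik had -1.49, Prl, the hormone prolactin, -1.49, and Syt10, a synaptotagmin of regulated secretion, -1.88. Slfn4, a Schlafen family member, had -2.46, with -3.98 in Cy3 and -0.94 in Cy5. Lpp, a LIM protein of cell adhesions, had -1.02, with -1.53 and -0.51.

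The ratios of the strains had little in common over all features. The Spearman correlation across features between the MF1 and C57 means was 0.14, and 0.21 over probes with values on all 12 arrays. Taken alone, MF1 had 628 features (4.36%) with an unadjusted limma p under 0.05 against a ratio of 0, 342 rostral (2.37%) and 286 caudal (1.98%). C57 had 1400 (9.71%), 610 rostral (4.23%) and 790 caudal (5.48%). They shared 96, which is 15.3% of the MF1 calls and 6.86% of the C57 calls. Of the 96, 72 (0.499% of all features tested) had the same sign and 24 (0.166%) opposite signs. The same sign was found for 56.4% of all features. Among the 72, 2 had an unadjusted p under 0.05 for the strain difference.

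**Figure D4:**
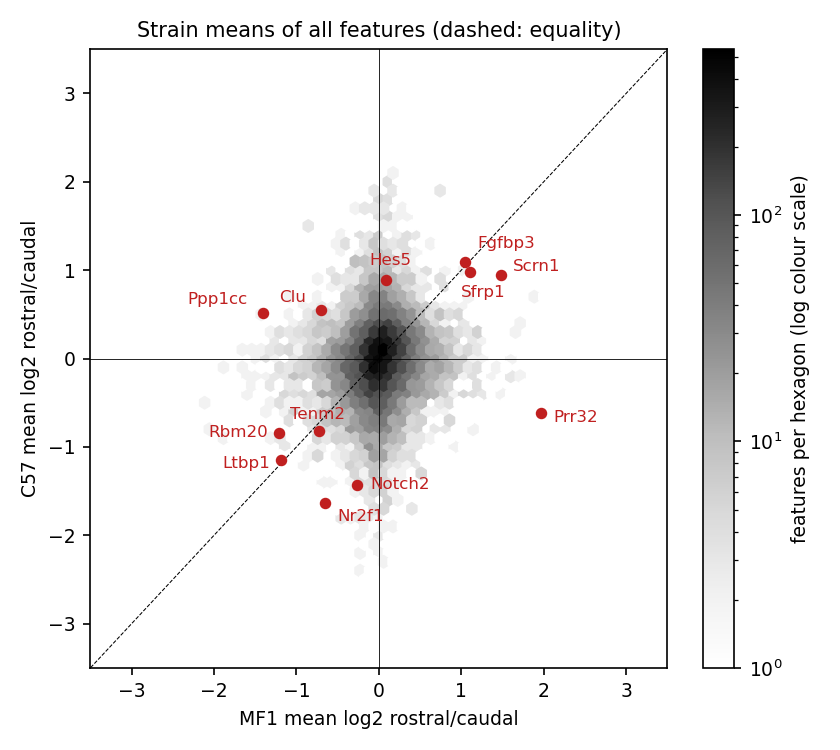
Mean log2 rostral over caudal ratio in MF1 (horizontal axis) and C57 (vertical axis) for 14418 features, each strain with 3 pools or at least 2; shading gives the number of features on a log colour scale and the dashed line marks equal ratios. The cloud has no clear tilt (Spearman 0.14), and Fgfbp3, Sfrp1, Ltbp1 and Tenm2 lie near the line, Nr2f1 and Notch2 below 0 in both strains but off it, and Ppp1cc, Clu and Prr32 on opposite sides of 0.

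A further set of genes was chosen for an unadjusted p under 0.05 and the same sign in each strain, from the same pools that give the strain difference. That choice favours small strain differences, so their sizes and the counts over these genes are a description. Of the 16, 5 had the same sign of the strain difference in both orientations and 11 did not. On the rostral side, 8 genes were named. Fgfbp3, which binds and releases FGF ligands, had ratios of 1.16, 0.92 and 1.04 in MF1 and of 1.22, 1.04 and 1.01 in C57. All 6 pools lay close to a 2-fold rostral excess, and the strains overlapped. The difference was -0.05 with an interval from -0.54 to 0.45, and 0.32 and -0.42 by orientation. Sfrp1, a secreted modulator of Wnt signalling, had 1.09, 1.12 and 1.10 in MF1 and 0.85, 1.30 and 0.80 in C57, a difference of 0.12 with an interval from -0.43 to 0.67. Its probes gave 0.02 and 0.22, and its orientations 0.36 and -0.13. Pantr1, a long noncoding RNA, had 0.90, 0.70 and 0.81 in MF1 and 0.96, 0.74 and 0.77 in C57, with -0.02 and an interval from -0.51 to 0.47, and 0.07 and -0.11 by orientation.

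Scrn1, which encodes secernin, had 1.41, 1.52 and 1.5 in MF1 and 1.37, 0.78 and 0.67 in C57. Every MF1 pool lay above the C57 pools, the nearest by little, and the difference of 0.53 had an interval from -0.08 to 1.15 (limma, adjusted p = 0.887) and was 0.21 and 0.86 by orientation. Dct, which acts in melanin synthesis, had a difference of -0.33, and Rlbp1, a retinaldehyde binding protein, of -0.17. Tagln2, an actin binding protein, had 0.09, and Gas1, a cell surface protein that binds Hedgehog ligands, 0.08. For 7 of the 8 rostral genes the interval lay wholly between -1 and 1.

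On the caudal side, Rbm20, a splicing factor, had -1.09, -1.14 and -1.40 in MF1 and -0.94, -0.73 and -0.85 in C57. Its difference was -0.37 with an interval from -0.88 to 0.14, but its probes differed by more, at 0.07 and -0.81. Its sign also turned with the dyes, at -0.96 with rostral RNA in Cy3 (limma, unadjusted p = 0.0132) and 0.22 in Cy5. Tenm2, a teneurin that mediates contacts between neurons, had -0.97, -0.60 and -0.62 in MF1 and -0.74, -0.87 and -0.85 in C57, a difference of 0.09 with an interval from -0.43 to 0.61, and 0.13 and 0.05 by orientation. Its probes gave 0.43, -0.10 and -0.06, and at the first of them the pools of the strains did not overlap. Ltbp1, which stores latent TGF-beta in the matrix, had -0.04 and Mt1, a metallothionein, 0.01. Stoml1, a stomatin-like membrane protein, had -0.04, Slf1, a DNA repair factor, 0.34 and 5730409K12Rik 0.34, each measured in 2 pools of one strain. Slf1 turned with the dyes, at -1.23 in Cy3 (limma, unadjusted p = 0.0498) and 1.91 in Cy5 (0.0339), and its C57 mean was 0.69 in Cy3 and -2.61 in Cy5. Nr2f1 was the only one of the 16 shared genes, rostral and caudal together, with an unadjusted p under 0.05 for the strain difference.

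The scale of the arrays bears on how alike these gradients were. With all arrays scaled to the same spread, the difference became 0.45 for Fgfbp3, 0.61 for Sfrp1, 0.35 for Pantr1, 1.15 for Scrn1 and -0.85 for Rbm20. The sign turned for 8 of the 16: Fgfbp3, Pantr1, Dct (to 0.11), Rlbp1 (to 0.14), Tenm2 (to -0.26), 5730409K12Rik (to -0.15), Mt1 (to -0.28) and Slf1 (to -0.12). In 3 of the 16, Sfrp1, Scrn1 and Rbm20, the unadjusted limma p was under 0.05 with scaling (0.0369, 0.00458 and 0.0146). Without scaling the interval of each of these 3 held 0.

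Of the reference genes of the axis, 6 of 7 caudal and 9 of 12 rostral ones were tested. Apart from Nr2f1, 0 of the 14 others had an unadjusted p under 0.05 for the strain difference, and 0 passed adjustment. The FGF receptor Fgfr3, known as higher caudally, had -0.21, -0.13 and -0.02 in MF1 and -0.51, -1.05 and -0.39 in C57. The C57 pools all lay below the MF1 pools, with a difference of 0.53 and an interval from -0.07 to 1.13. Emx2 and Emx1, homeobox factors of the dorsal telencephalon, had 0.13 and 0.23, and Crym, which binds thyroid hormone, -0.01. Of these 3, neither strain had a ratio with an unadjusted p under 0.05.

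Among rostral genes, the FGF-induced transcription factor Etv5 had 0.59, 0.47 and 0.48 in MF1 and 0.54, 0.59 and 0.56 in C57. Its pools overlapped, and the difference was -0.06 with an interval from -0.52 to 0.41. Its probes disagreed within MF1, at 1.10, 0.65 and -0.04 for one and 0.08, 0.28 and 1.0 for the other, and its orientations gave 0.17 and -0.28. Spry2, which dampens FGF signalling, had 0.66, 0.75 and 0.25 against 0.58, 0.33 and 0.43, a difference of 0.11. Pax6, a regulator of cortical progenitors, had 0.33, 0.28 and 0.55 against 0.66, 0.19 and 0.41, a difference of -0.03 that was 0.27 and -0.34 by orientation. The ligands Fgf8 and Fgf17 had 0.15 and 0.40, and Etv4, another target of FGF signalling, 0.06.

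Fgf15, a ligand with a rostral source, had 0.00, 0.06 and -0.08 in MF1 and -1.21, -1.13 and 0.03 in C57. C57 pool 3 lay among the MF1 pools and the other C57 pools on the caudal side. Its difference of 0.77 had an interval from -0.11 to 1.64 and was 1.49 and 0.04 by orientation. Spry4 and Dusp6, further feedback inhibitors, had 1.19 and -0.20 from 2 C57 pools. The orientations of Spry4 were -1.79 and 4.18, so its sign turned with the dyes.

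**Figure D5:**
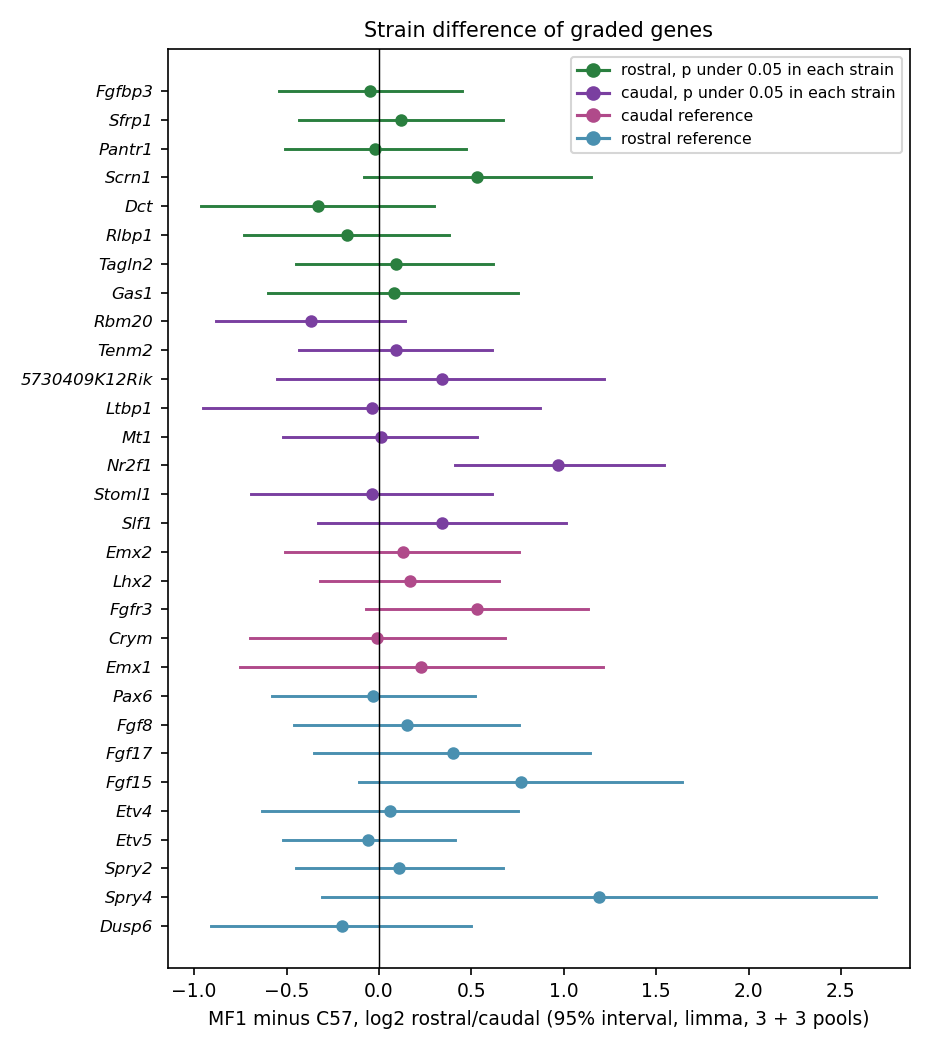
Strain difference (MF1 minus C57, log2 rostral over caudal) of the genes graded in each strain and of the reference genes of the axis, with points for the estimate and lines for the 95% interval of the limma fit on 3 + 3 pools (2 pools in one strain for 5730409K12Rik, Stoml1, Slf1, Spry4 and Dusp6). The interval lies off 0 for Nr2f1 alone (0.41 to 1.54) and is widest for Spry4 (-0.31 to 2.69).

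Genes called in each strain with opposite signs were few, and most were measured in part. There were 15 named ones, of which 6 are given, ranked by the larger of their p-values in the strains. The transcript 4930417O22Rik had ratios of 2.08 and 2.85 in MF1 pools 1 and 3 and of -1.14, -1.25 and -0.91 in C57. Its difference of 3.56 was 4.79 and 2.33 by orientation (limma, adjusted p = 0.532). It was 1.82 with no filter on missing values (limma, unadjusted p = 0.261) and 2.18 with 12 arrays and a random pool effect (0.118). Prr32 had 2.34 and 1.6 in MF1 pools 1 and 2 and -0.55, -0.43 and -0.89 in C57, a difference of 2.59. It was 1.04 and 4.14 by orientation, and MF1 pool 2 read -0.69 in Cy3 and 3.89 in Cy5. Tmem140, a membrane protein, had a difference of 1.68 (2.67 and 0.69 by orientation) and 1700018F24Rik of 1.77 (0.68 and 2.87). Sh3bp1, a GTPase activating protein, had 1.97 (2.56 and 1.39). With rostral RNA in Cy5 the means of Tmem140 were -0.27 in MF1 and -0.96 in C57, so its signs were opposite in Cy3 only. Of the 6, 2610306M01Rik alone had 3 pools in each strain, and its sign turned with the dyes, as given above.

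Opposite signs were common among the calls of the strain difference as a whole. Of the 879 features, 651 (74.1%) had strain means of opposite sign, beside 43.6% of all features. The larger ratio in size was the one in C57 for 611 (69.5%), beside 60.8% of all features. For 632 of the 879 (71.9%) the sign was the same in both orientations, beside 5117 of 14418 (35.5%). All of these shares follow in part from the choice of features by their difference.

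The 28 gene lists held 645 tested members, and the medians of their strain differences lay between -0.16 and 0.24. An unadjusted p under 0.05 was reached by no member in 12 lists, beside 6.1% of all features. A count of 0 in a short list is not a result about the list. These medians are given beside the median of 0.01 over all features, and no member of any list passed adjustment. Among the signalling pathways of the axis, FGF signalling had 0 of 11 members at an unadjusted p under 0.05 and a median of -0.02. The cortical hem and Wnt list had 0 of 26 and a median of 0.13, with Wnt7b, a Wnt ligand, at 0.57 and Rspo3, an enhancer of Wnt signalling, at 0.61. The guidance and area molecules had 0 of 37 and a median of 0.06.

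The BMP and TGF-beta list had 1 of 26 members on each side at that threshold (7.69% together, close to the 6.1% of all features). Msx2, a homeobox target of BMP signals, had 0.01, -0.06 and 0.23 in MF1 and 0.79, 0.56 and 0.86 in C57, a difference of -0.68 (limma, adjusted p = 0.752). Its difference was -0.45 and -0.90 by orientation, and the pools did not overlap. Smad6, an inhibitor of BMP signalling, had 1.49 from 2 C57 pools, with 3.69 in Cy3 and -0.70 in Cy5, and 0.76 without C57 pool 2 (limma, unadjusted p = 0.145).

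Of 15 members of the retinoic acid list, 3 had an unadjusted p under 0.05, all with MF1 higher (20.0%, beside 3.61% of all features in that direction). Besides Rdh10 these were Stra6l and Dhrs3. With a list this short, chosen with earlier results of these data known, the share is not a result about the list. Dhrs3, which returns retinaldehyde to retinol, had -0.05, 0.24 and -0.41 in MF1 and -1.08, -0.66 and -1.23 in C57. The pools did not overlap, and the difference of 0.92 was 1.28 and 0.56 by orientation (limma, adjusted p = 0.729). Stra6l, a membrane receptor of retinol binding protein, had 0.27, 0.03 and -0.19 in MF1 and -2.10 and -2.44 in 2 C57 pools. Its difference of 2.30 was 3.22 and 1.38 by orientation, but 0.97 with no filter on missing values (limma, unadjusted p = 0.426). The median of the list was 0.03, close to that of all features.

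None of the lists of cortical cell classes had a member at an unadjusted p under 0.05, beside 6.1% of all features, and most of these lists are short. Radial glia had 0 of 14 members there and a median of -0.05. Intermediate progenitors had 0 of 11 and 0.13, postmitotic neurons 0 of 25 and 0.02, Cajal-Retzius cells 0 of 6 and 0.24, and the cell cycle list 0 of 52 and -0.06. The cell cycle median was 0.26 with rostral RNA in Cy3 and -0.41 in Cy5. In the diencephalon list it was 0 of 11.

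Markers of tissue around the cortex are read against the same 6.1% of all features, 3.61% with MF1 higher and 2.49% lower. Of 28 members of the meninges and mesenchyme list, 23 had the higher ratio in MF1, beside 7416 of 14418 features, and 3 reached an unadjusted p under 0.05 on that side and 1 on the other. The list's median ratio was 0.04 in MF1 and -0.20 in C57. By pool it was 0.12, 0.07 and -0.12 in MF1 and -0.40, -0.05 and -0.13 in C57, so the pools of the strains overlapped. Col1a1, a fibrillar collagen, had 0.32, 0.10 and -0.19 in MF1 and -0.47, -0.75 and -1.45 in C57, a difference of 0.97 (0.55 and 1.38 by orientation). Vtn, an adhesion protein that is also made by pericytes, had 1.10, and Twist2, a mesenchymal transcription factor, 0.75. Col5a1 had -1.41 from 2 C57 pools. The median difference of the list was 0.16, 0.30 and 0.07 by orientation, and between 0.07 and 0.35 over the alternative settings. Whether the share of meninges in the caudal and rostral pieces bears on other genes was not tested.

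Of 16 blood vessel genes, 2 had the higher ratio in MF1 at an unadjusted p under 0.05 (beside 3.61% of all features). With lists this short, 1 or 2 such genes in this and the following lists are not a result about the list. Acta2, smooth muscle actin, had a difference of 0.89 (0.54 without C57 pool 3) and Slco1c1, a thyroid hormone transporter of brain endothelium, of 0.57. The red blood cell list had 1 of 10, Hebp1, a heme binding protein, at 1.05 (0.18 and 1.92 by orientation). The choroid plexus list had 1 of 9, F5, coagulation factor V, at 1.14 from 2 C57 pools. It was 2.11 and 0.18 by orientation, and 0.68 with no filter on missing values. In the ventral telencephalon list, 1 of 19 was on each side, Lhx8 at 1.32 and Ebf1 at -2.43, both transcription factors of ventral neurons, Ebf1 from 2 pools in each strain. Microglia and macrophages had 1 of 14, Fcer1g, an immune receptor subunit, at -0.85 (-0.10 and -1.60 by orientation). With no filter on missing values it was -1.58 (limma, unadjusted p = 0.0506).

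Genes of general cell metabolism had 3 members at that threshold. The shares were 1.54% of ribosomal protein, 1.43% of oxidative phosphorylation and 5.26% of glycolysis genes, all below the 6.1% of all features. Of 65 ribosomal protein genes, 1 had an unadjusted p under 0.05, Rpl23 with a difference of 0.61 (0.15 and 1.08 at its probes), and the median was -0.08. Of 70 oxidative phosphorylation genes, 1 did so, Cox8a, a subunit of cytochrome c oxidase, at -0.54, and the median was -0.09. The hypoxia and glycolysis list had 1 of 19. That gene, Pgm1, a phosphoglucomutase, had 0.67, 0.61 and 0.23 in MF1 and 1.6, 1.70 and 0.97 in C57. All 6 pools were rostral and the C57 pools higher, with a difference of -0.92 that was -0.87 and -0.97 by orientation (limma, adjusted p = 0.742). With arrays scaled it was -0.55.

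Beside 6.1% of all features, stress and sex chromosome genes had 0 of 22 and 0 of 7 members at an unadjusted p under 0.05. The interferon and antigen presentation list had 1 of 22, Ifi44l, at -1.83 from 2 C57 pools and -0.31 with no filter on missing values. Of 7 genes whose level is known to vary between mouse strains, 1 did so, Entpd4, a nucleotide hydrolase, at 1.27 from 2 C57 pools.

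Olfactory and vomeronasal receptors are known for their use in the sensory neurons of the nose. Of 176 on the array, 74 had enough values. Among them 3 had an unadjusted p under 0.05 with MF1 higher and 7 with MF1 lower (beside 3.61% and 2.49% of all features). Their median difference was -0.07, but it was -0.73 with rostral RNA in Cy3 and 0.77 in Cy5. The median size of their differences was 0.48, beside 0.25 over all features, and the median SD between pools was 0.32 in MF1 and 0.76 in C57. The receptor Olfr48 had -0.08, 0.07 and -0.09 in MF1 and 2.27 and 1.73 in C57 pools 1 and 3, a difference of -2.04 that was 0.94 in Cy3 and -5.01 in Cy5.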

How the data were processed

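Rostral and caudal ends of E13.5 neocortex were compared on 12 two-colour arrays. RNA was extracted with Trizol per the labels, and cDNA was amplified by the SMART method per the series' design text. The authors deposited log2 ratios for 21998 probes, with no spot intensities used here. Not given in the sources used here were the image analysis, background correction, normalization, numerator of the ratio and genome build, so no coordinates are given. The depth of an array has no count, and the number of arrays limits the precision.

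Values at 16.61, the log2 of a ratio of 100000, were dropped (701 values). Each array was centred on its median, and arrays with rostral RNA in Cy3, as the labels give the dyes, were multiplied by -1, taking the deposited ratio as Cy5 over Cy3. Both arrays of a pool were averaged. Probes were named through the platform annotation: 16864 had 1 symbol, 139 had several and 4995 had none. Of the Entrez numbers 16184 were found in RefSeq, and 0 symbols were replaced. Probes of a gene were averaged (1069 genes with several). The 14418 features with at least 2 pools of each strain, 11490 of them named genes, entered the limma fit (version 3.58.1, R 4.3.3) and adjusted by Benjamini-Hochberg over all features. Exact permutation tests used SciPy 1.17.1 in Python 3.11.15. The fit was tested on simulated data.

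Genes were named by rule. These were the 12 with the smallest p in each direction among genes with 3 pools in each strain, the 8 in each direction with an unadjusted p under 0.05 and the same sign in each strain, and up to 6 with opposite signs. The measured reference genes and 2 members of every other list with the smallest p were added. Members and lists were chosen with earlier results of these data known. Alternatives changed the centring, scaling, ceiling, orientation, missing-value filter, probe summary, spread estimate, random pool effect, replicate block and each pool left out. Pool numbers were checked as pairs: deviations of same-numbered pools correlated at -0.22, 0.12 and 0.02 (Spearman), so they were not taken as pairs.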

Additional observations from a re-analysis of the deposited data

Results flagged for a closer look

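For 11 of the named genes, every pool of MF1 lay on one side of a ratio of 0 and every pool of C57 on the other. The strain difference of each was tested with limma and none passed adjustment. Such a layout was found for 214 of 10596 features (2.02%). Many of the named genes were chosen by a small p for the strain difference, which favours this layout. The 11 can therefore not be read as an excess over that share. The log2 differences (MF1 minus C57) were 1.01 for Mafg, 1.03 for Capg, 0.82 for Dnaaf2 and 0.61 for Rpl23. They were -1.93 for Ppp1cc, -1.26 for Clu, -0.86 for Cux1 and -0.54 for Cox8a. They were -1.69 for 2610306M01Rik, -1.49 for Prl and -1.88 for Syt10. Of these genes, Ppp1cc and Mafg also had no overlap between single arrays, and the sign of 2610306M01Rik turned with the dyes. For Cux1 the layout held in the mean of its probes but at neither probe, and for Rpl23 at a single probe only.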

How the results depend on the processing

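The count of features with an adjusted p under 0.05 for the strain difference was 0 under all 19 alternatives, with smallest adjusted p-values from 0.102 to 1.0 (limma). The count at an unadjusted p under 0.05, 879 as reported, was 2343 with rostral RNA in Cy3 only, 2090 in Cy5 only, 484 for probes on all 12 arrays and 1383 with no filter on missing values. Leaving out 1 pool gave 702 (without MF1 pool 2) to 1200 (without C57 pool 1) and a correlation of the strain means from 0.08 to 0.20. With the replicate block, although pool numbers did not pair the samples, it was 780, with 0 after adjustment. Of the 879 features, 648 were also among the 806 with scaled arrays and 564 among the 1105 without MF1 pool 3. The 49 named genes with an unadjusted p under 0.05 had 911 values under alternatives, of which 770 kept the sign and the side of the threshold, 134 kept the sign only and 7 turned. Of the 59 other named genes, 29 reached an unadjusted p under 0.05 under some alternative, and 42 of 348 list medians moved. All 7 came from a single orientation: in Cy3, Foxn1 at -0.24 and Olfr48 at 0.94, and in Cy5, 2610306M01Rik at 0.14, Smad6 at -0.70, Entpd4 at -0.18, Ifi44l at 1.41 and Vmn2r89 at 0.90. Beyond the orientation the cause was not tested.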
